A study of Mus musculus with 3 samples.

Results

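The genes described here are 8 chemokine receptors (*Cxcr2*, *Cxcr4*, *Cxcr6*, *Ccr1*, *Ccr2*, *Ccr7*, *Ccr9* and *Cx3cr1*) and 1 chemokine ligand (*Cxcl12*), chosen by symbol from the 27998 genes counted. They were read in meningeal cells of male C57BL/6J mice aged 10 to 12 weeks, in 3 droplet libraries that each pooled 4 animals. HC replicate 1 and HC replicate 2 came from 8 unstressed mice kept in their home cage, and CSD replicate 1 came from 4 mice after 14 days of chronic social defeat (CSD), a repeated exposure to an aggressor, that had been classed as stress-susceptible by behavioral tests. Membranes were picked from brain and skull, cells that were DAPI- (live) and DRAQ5+ (nucleated) were sorted as singlets, and each pool ran in its own lane of 1 chip. A further CSD pool was lost, per the study's methods, so the stressed group is a single library. The question behind the comparison is how defeat stress changes meningeal immune cells, neutrophils first of all.

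Chemokine receptors are G protein-coupled receptors that steer leukocytes along gradients of small secreted proteins. In neutrophils, CXCR4 binding CXCL12 retains cells in bone marrow, while CXCR2, the receptor for CXCL1 and CXCL2, draws them into blood and tissue. CCR2 carries classical monocytes out of marrow, CX3CR1 marks microglia, tissue macrophages and patrolling monocytes, CCR7 leads lymphocytes and migratory dendritic cells to lymph nodes, CXCR6 is found on tissue-resident T cells and innate lymphocytes, CCR9 guides lymphocytes and plasmacytoid dendritic cells to gut and thymus, and CCR1 answers to CCL3 and CCL5 on myeloid cells.

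A barcode counted as a cell where it held at least 500 UMIs (distinct RNA molecules), 174 to 4548 genes and under 8.3% mitochondrial UMIs. The libraries held 9891861, 8814690 and 10206236 UMIs in the order HC replicate 1, HC replicate 2 and CSD replicate 1, and per-library values below keep that order. After removal of doublets, 2549, 1686 and 2615 cells were left, 6850 in all. HC replicate 2 stood apart in that 24.1% of its UMIs lay in barcodes of at most 100 UMIs, against 7.87% and 5.48% in the others. Libraries shared 3 to 8 cell barcodes. Of 25 clusters, 24 were named from marker genes that include no member, giving 19 cell types, and 1 cluster led by *Krt18* and *Epcam* stayed unnamed. The types included 362 microglia-like cells of the brain itself and 180 olfactory sensory neuron-like cells, which are not meningeal. Clustering used neither the members nor the other chemokine genes listed for this work. Levels are a gene's UMIs per 1000000 summed UMIs of its cell type in that library (CPM), with the mean ± SD over the 3 libraries, and are described without a test. Because the libraries read 3′ ends, levels are compared between cell types for 1 gene, never between genes.

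All 9 genes were detected. *Cx3cr1* had 2858 UMIs in cells, *Ccr2* 2201, *Cxcr2* 1971, *Ccr1* 1558, *Cxcr6* 607, *Ccr7* 445, *Cxcr4* 272, *Cxcl12* 268 and *Ccr9* 115. In GRCm38 coordinates of the GENCODE annotation, 5 of the 9 lie on chromosome 9. *Cx3cr1* is at chr9:119901616-120069879 on the minus strand. A tighter group follows 3609 kb away, with *Ccr9* at chr9:123678439-123784330 (plus), *Cxcr6* at chr9:123806475-123811760 (plus), *Ccr1* at chr9:123962124-123968692 (minus) and *Ccr2* at chr9:124101950-124113557 (plus). No protein-coding gene starts and ends between *Ccr9* and *Cxcr6*, which are 22.1 kb apart, while *Xcr1* sits between *Cxcr6* and *Ccr1*, and *Ccr1l1* and *Ccr3* sit between *Ccr1* and *Ccr2*. Neighbours in this group had their highest levels in different cells: *Ccr9* in plasmacytoid dendritic cell-like cells, *Cxcr6* in T-like cells, *Ccr1* in mature neutrophil-like cells and *Ccr2* in monocyte-like cells. The others are *Cxcr2* at chr1:74153989-74161246 (plus), *Cxcr4* at chr1:128588199-128592293 (minus), *Cxcl12* at chr6:117168535-117181367 (plus) and *Ccr7* at chr11:99144196-99155077 (minus).

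The promoters of *Cxcr2* and *Ccr1* are printed because both receptors had their highest level in mature neutrophil-like cells. Each runs from 250 bases before to 50 after the RefSeq start (GRCm38.p6), 5′ to 3′ on the gene's strand, with capitals for AGGAAG, the core bound by ETS factors, or its reverse complement. The *Cxcr2* stretch is chr1:74153744-74154043 (plus) and the *Ccr1* stretch chr9:123968643-123968942 (minus).
*Cxcr2*: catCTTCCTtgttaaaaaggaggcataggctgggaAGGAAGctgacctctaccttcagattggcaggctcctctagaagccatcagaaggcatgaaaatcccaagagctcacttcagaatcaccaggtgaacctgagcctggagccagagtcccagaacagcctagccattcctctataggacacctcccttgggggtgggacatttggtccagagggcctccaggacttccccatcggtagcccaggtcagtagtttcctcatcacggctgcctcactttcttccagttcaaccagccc
*Ccr1*: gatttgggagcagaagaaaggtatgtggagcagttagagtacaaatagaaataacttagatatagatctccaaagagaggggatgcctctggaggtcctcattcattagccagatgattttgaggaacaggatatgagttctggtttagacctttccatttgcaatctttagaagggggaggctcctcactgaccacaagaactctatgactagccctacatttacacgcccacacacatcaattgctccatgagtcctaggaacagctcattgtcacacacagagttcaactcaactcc
*Cxcr2* held 2 matches and *Ccr1* none, and 35.4% of 32851 mouse promoters of this length hold at least 1. Of the 8 member promoters in the table, all but *Ccr7*, *Ccr9* held 1 match and the other 6 none. The other motifs searched, on both strands, were GGGCGG (3 in *Cxcr4* and 4 in *Cxcl12*, 35.7% of promoters), TATAAA (2 in *Cxcr4*, 13.6%), ACGTG (19.6%), GAGGAAGT (which holds AGGAAG, 3.2%), TGACGTCA (1.79%) and the NF-kB consensus (0.411%), the last 4 in no member. GC content was 54% in *Cxcr2* and 44% in *Ccr1*, with 2 and 1 CpG dinucleotides, against 20 each in *Cxcr4* and *Cxcl12*. These matches describe letters in a window and were not tested.

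*Cxcr2*, the neutrophil receptor for CXCL1 and CXCL2, was highest in mature neutrophil-like cells in every library, at 446, 443 and 504 CPM. The mean of 464 ± 34.7 CPM (SD, n = 3) lay above immature neutrophil-like cells (107, 133 and 105 CPM) with no overlap between libraries. Preneutrophil-like cells, the cycling stage before them, had 22.7, 49.1 and 35.2 CPM. Of all *Cxcr2* UMIs in cells, 63.7% were in mature and 21.6% in immature neutrophil-like cells. After thinning each cell to 500 UMIs, 23.6% of mature neutrophil-like cells and 5.25% of immature ones had a UMI, against 1.67% of olfactory sensory neuron-like cells, which should lack the receptor. Without thinning these shares were 50.6%, 32.4% and 5.56%, at median depths of 1296 to 1535, 3120.5 to 3816 and 4235 to 4609 UMIs per cell. Below the neutrophil-like cells the order was not clear: basophil and mast cell-like cells had 46.7, 145 and 35.1 CPM on 14 UMIs, which overlapped immature neutrophil-like cells.

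The 2 mature neutrophil-like clusters stood apart in CPM and close together in molecules per cell. Cluster 3, led by *Il1b* and *Ccl6*, had 686 ± 25.4 CPM of *Cxcr2* (SD, n = 3), and cluster 1, led by *Retnlg* and *Mmp8*, had 384 ± 47.8 CPM. Cells of cluster 3 held 1086 UMIs on average and those of cluster 1 held 1882, so that *Cxcr2* came to 0.746 ± 0.0525 UMIs per cell in cluster 3 and 0.725 ± 0.127 in cluster 1, within 1 SD of each other. Immature neutrophil-like cells had 0.445 ± 0.0084 *Cxcr2* UMIs per cell and preneutrophil-like cells 0.349 ± 0.0844, so the order along the 4 clusters was shallower per cell than in CPM. *Ccr1* had 376 ± 76.3 CPM in cluster 3 and 253 ± 40.6 in cluster 1, and 0.41 ± 0.0886 and 0.477 ± 0.0847 UMIs per cell.

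**Figure D1:**
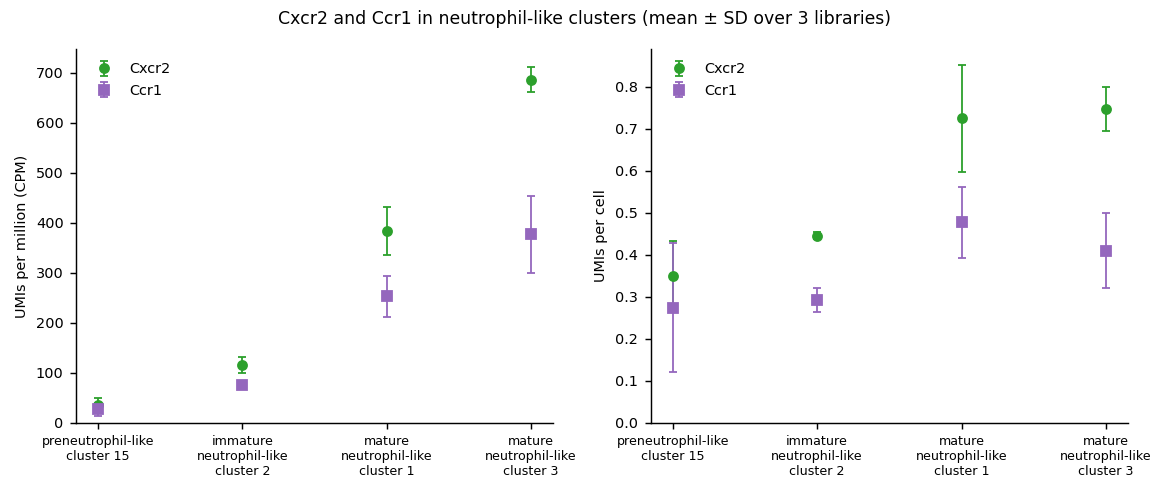
*Cxcr2* and *Ccr1* in the 4 neutrophil-like clusters, as CPM (left panel) and UMIs per cell (right panel), points and bars being the mean ± SD over 3 libraries. *Cxcr2* reached 686 CPM in cluster 3 and 384 in cluster 1, yet 0.746 and 0.725 UMIs per cell.

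*Ccr1*, a receptor for CCL3 and CCL5, was also highest in mature neutrophil-like cells, at 234, 333 and 290 CPM (mean 286 ± 49.5, SD, n = 3). Basophil and mast cell-like cells followed at 74.7, 261 and 132 CPM on 32 UMIs, and their range overlapped that of the mature neutrophil-like cells. Immature neutrophil-like cells had 74.6 ± 4.19 CPM, border macrophage-like cells 74.9, 11.4 and 98.1 CPM, and monocyte-like cells 44.5, 40.5 and 77.4 CPM, and no library order separated these 3. The thinned share was 15.7% in mature neutrophil-like cells, against 0 of 180 neuron-like cells, which allows a share of up to 1.67%. Without thinning these shares were 34.5% and 4.44%. Among the 1651 mature neutrophil-like cells, 835 had a *Cxcr2* UMI, 569 a *Ccr1* UMI and 308 both, an overlap that was not tested.

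*Cxcr4*, the receptor for CXCL12, was low in every cell type. Mature neutrophil-like cells had the highest mean, 31.7, 36.6 and 17.6 CPM (28.6 ± 9.9, SD, n = 3), followed by mature B-like cells at 22.7, 21.4 and 13.2, immature neutrophil-like cells at 19.5, 24.4 and 6.4 and B precursor-like cells at 8.2, 18.9 and 17.9. None of these neighbours was separated beyond the spread between libraries. The thinned share of cells with a *Cxcr4* UMI was 1.64% in mature neutrophil-like cells and 0.556% in the neurons.

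*Cxcl12*, the ligand of CXCR4, came from the stroma. Fibroblast-like cells held 61.6% of its UMIs, at 167, 210 and 272 CPM (216 ± 52.6, SD, n = 3). Endothelial-like cells had 1228, 301 and 0 CPM on 13, 21 and 4 cells, so the mean of 510 ± 640 CPM rests on HC replicate 1, and the 0 in CSD allows up to 462 CPM by the limit that a count of 0 sets (3 UMIs). All hematopoietic types were at or below 5.65 CPM on average, and 36.2% of fibroblast-like cells had a UMI against 0.982% of T-like cells (9.05% and 0.196% after thinning).

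*Ccr2* was highest in monocyte-like cells, the cells it brings into tissue, at 458, 413 and 439 CPM (437 ± 22.6, SD, n = 3), and no library of the next type reached this range. Conventional dendritic cell (cDC)-like cells had 255, 247 and 264 CPM, border macrophage-like cells 182, 274 and 219, and NK-like cells 228, 217 and 202, and the first of these did not separate from the second, nor the second from the third. Myeloid progenitor-like cells followed at 127, 130 and 181 CPM, below NK-like cells in each library. Among monocyte-like cells, 82.5% had a *Ccr2* UMI (21.7% after thinning), against 5.56% of the neurons (0 of 180 after thinning, which allows up to 1.67%).

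*Cx3cr1*, the receptor for fractalkine (CX3CL1), was highest in microglia-like cells at 1778, 1471 and 1433 CPM (1561 ± 189, SD, n = 3). Border macrophage-like cells had 401, 360 and 429 CPM and monocyte-like cells 193, 160 and 69.5 CPM, and these 3 types did not overlap. Below them, cDC-like cells had 92.1, 96.4 and 67.8 CPM, which overlapped the monocyte-like cells' CSD value. After thinning, 55.5% of microglia-like, 18.2% of border macrophage-like and 6.82% of monocyte-like cells had a UMI, and 4.44% of the neurons did.

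*Cxcr6*, a receptor of resident lymphocytes, was highest in T-like cells at 385, 326 and 373 CPM (361 ± 30.9, SD, n = 3), which held 74.8% of its UMIs, and then in cells like group 2 innate lymphocytes (ILC2-like) at 261, 167 and 261 CPM. With a mitochondrial limit of 5%, ILC2-like cells instead had the higher mean, 712 against 249 CPM. Within the T-like cells, cluster 22 (57 cells, led by *Cd3g* and *Cd163l1*) had 1319, 691 and 1359 CPM of *Cxcr6*, and cluster 5 (452 cells, led by *Cd3g* and *Ms4a4b*) had 275, 295 and 290 CPM, with no overlap. Cluster 22 also held more *Ccr2*, at 320, 422 and 207 CPM against 32.9, 45.9 and 62 in cluster 5. Both clusters were formed without these genes but on other genes of the same cells, so the difference is a description. NK-like cells had 0, 57.2 and 0 CPM of *Cxcr6*.

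*Ccr7* was highest in mature B-like cells at 159, 205 and 140 CPM (168 ± 33.1, SD, n = 3), and cDC-like cells came next at 59.6, 164 and 117 CPM, a range that overlaps it. The UMIs were spread very differently over the cells of these types. In mature B-like cells, 121 of 556 cells had a *Ccr7* UMI and 5 cells had at least 3, which together held 10.3% of the UMIs. In cDC-like cells, only 12 of 273 had a UMI, and 9 cells with at least 3 held 122 of the 126 UMIs, with up to 26 in a single cell. These 9 cells came from all 3 libraries, 3 of 132, 4 of 90 and 2 of 51 cDC-like cells. The cells were picked by their *Ccr7* count, and the genes below are described without a test.

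In the 9 *Ccr7*-high cells, the actin bundler *Fscn1* stood at 863 CPM and the chemokine *Ccl22* at 2410 CPM, against 3.17 and 15.9 CPM in the other 264 cDC-like cells. All 8 genes of a marker list for migratory dendritic cells were higher there, from *Cd83* (611 against 51.6 CPM) to *Nudt17* (198 CPM against 0). *Cd209a*, a lectin of monocyte-derived and type 2 dendritic cells, was at 36 against 780 CPM. *Ccr2* was lower there, at 36 against 264 CPM (2 and 333 UMIs). *Cx3cr1* stood at 36 against 90.5 CPM (2 and 114 UMIs), *Ccr1* at 18 against 42.9 CPM (1 and 54 UMIs) and *Cxcr2* at 36 against 19.1 CPM (2 and 24 UMIs), the last being the one other member with the higher value in the *Ccr7*-high cells. *Cxcr4*, *Cxcr6*, *Ccr9* and *Cxcl12* had 0 UMIs in the 9 cells, which allows up to 53.9 CPM, above the level of each in the others. Median depth was 5906 UMIs in the 9 cells and 5190 in the others.

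**Figure D2:**
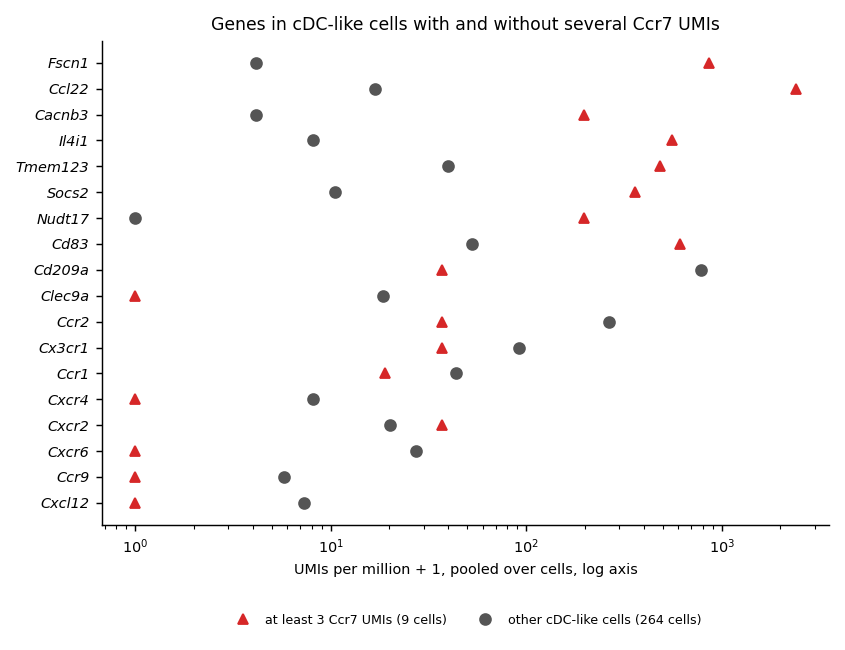
Genes in cDC-like cells with at least 3 *Ccr7* UMIs (triangles, 9 cells) and in the other 264 (circles), as CPM pooled over cells plus 1, on a log axis. The 8 migratory genes at the top lie right of the circles, as *Fscn1* at 863 against 3.17 CPM, while *Cd209a*, *Ccr2*, *Cx3cr1* and *Ccr1* lie left, *Cxcr2* lies right on 2 UMIs, and *Clec9a*, *Cxcr4*, *Cxcr6*, *Ccr9* and *Cxcl12* have no UMI in the 9 cells.

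*Ccr9* was nearly restricted to plasmacytoid dendritic cell (pDC)-like cells, which are 70 of the 6850 cells and held 68.7% of its UMIs. They had 242, 309 and 269 CPM (273 ± 33.9, SD, n = 3), above ILC2-like cells at 34.8, 41.6 and 87 CPM on 5 UMIs, with no overlap. Every other named type averaged 4.75 CPM or less. Of pDC-like cells, 61.4% had a *Ccr9* UMI (11.4% after thinning), against 1 of 180 neuron-like cells.

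**Figure D3:**
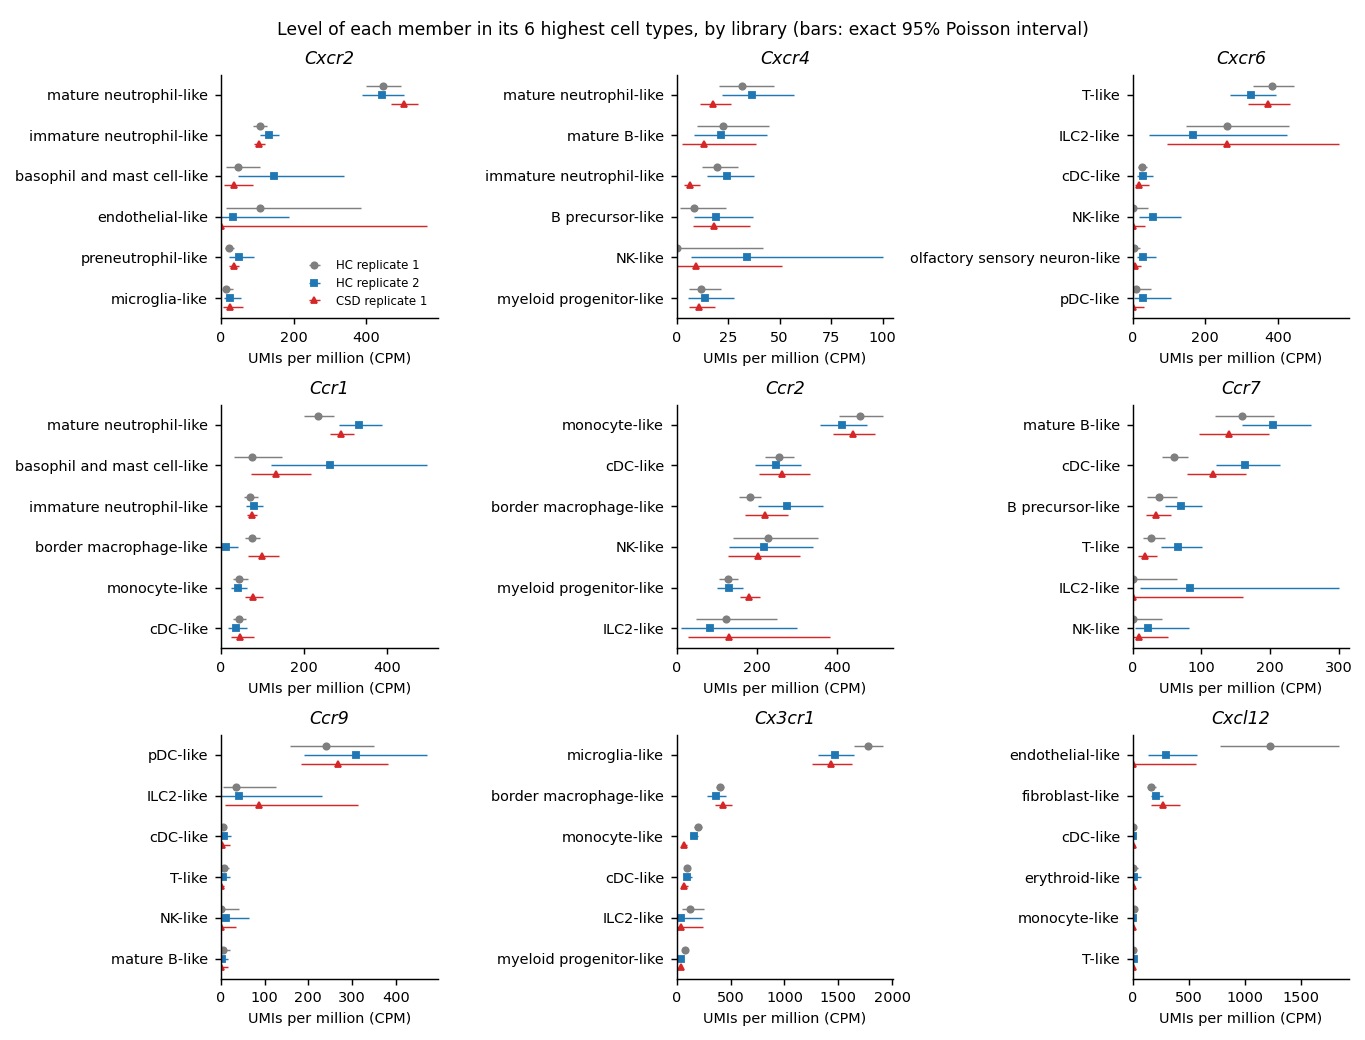
Each panel gives 1 gene in the 6 named cell types with its highest mean, on a horizontal axis of CPM, with a point for each library (circles HC replicate 1, squares HC replicate 2, triangles CSD replicate 1) and its exact 95% Poisson interval, which covers counting error only. *Cxcr2*, *Cxcr6*, *Ccr2*, *Ccr9* and *Cx3cr1* had a highest type that did not overlap the next, whereas *Cxcr4*, *Ccr1*, *Ccr7* and *Cxcl12* did not.

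By a fixed rule, the 3 genes most alike to each member across the 19 cell types were named from Pearson's r of log2 mean CPM. The types share libraries and free RNA, so r is a description. For *Cx3cr1* they were *Trem2* (r = 0.96), *Csf1r* (0.93) and *C1qb* (0.93), genes of microglia and macrophages, of which *Trem2* and *C1qb* were among the markers that named those clusters. For *Cxcr2* they were *2310001H17Rik* (0.88), the metalloprotease *Adam8* (0.88) and *Pglyrp1* (0.85), a neutrophil granule protein. *Ccr1* went with *Alox5ap* (0.90), a gene of leukotriene synthesis, the cytokine *Osm* (0.84) and the chemokine *Ccl6* (0.84). *Cxcr6* went with *Icos* (0.86), *Pdcd1* (0.85) and *Gimap3* (0.83), of which the first 2 are co-receptors of activated T cells. *Cxcl12* went with *Ltbp4* (0.95), *Palmd* (0.94) and *Tm4sf1* (0.94), and *Cxcr4* with *Fgd3* (0.91), *Rgs14* (0.90) and *Txnl4b* (0.88). The closest to *Ccr2* was *Gsto1* (0.81, then *Glud1* 0.80 and *S100a4* 0.79), to *Ccr9* *Sla2* (0.84, then *Abcg3* 0.79 and *Cd4* 0.76) and to *Ccr7* *Fam206a* (0.76, then *Sept6* 0.76 and *Slain1* 0.76).

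CSD was set against HC within each cell type on UMIs summed per library. edgeR's quasi-likelihood test (two-sided, Benjamini-Hochberg over all genes tested in that type) was run in the 14 types with at least 20 cells in every library, on genes with at least 20 UMIs. The 2 HC libraries give the only spread within a group, and the lone CSD library is assumed to vary like them. edgeR shares this spread between the genes of a type, so a p-value does not rest on a gene's own 2 HC values alone. The standard error (SE) beside an edgeR log2 value was derived from that value and its F statistic. It therefore restates the test and is no separate estimate of error. Stress cannot be told apart from the pool or lane. An exact permutation of 3 libraries has 3 outcomes and cannot reach 0.05. The members met the filter 47 times, as 8 of 9 genes, and *Ccr9* met it nowhere. Of the 47 tests, 3 passed an adjusted p of 0.05, all lower in CSD and all of *Cx3cr1*, which is 6.38% beside 0.709% of the 72228 tests over all genes. CSD lay below both HC libraries in 21 tests (44.7%, beside 34% of all), 11 of them *Cx3cr1*. It lay above both in 16 (34%, beside 33.4%), 8 of them *Ccr1*. An unadjusted p under 0.05 in edgeR was seen in 14 tests, of which 9 were *Cx3cr1*. Over all genes, the share with such a p ran from 160 of 5754 in border macrophage-like cells to 573 of 5590 in mature neutrophil-like cells.

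**Figure D4:**
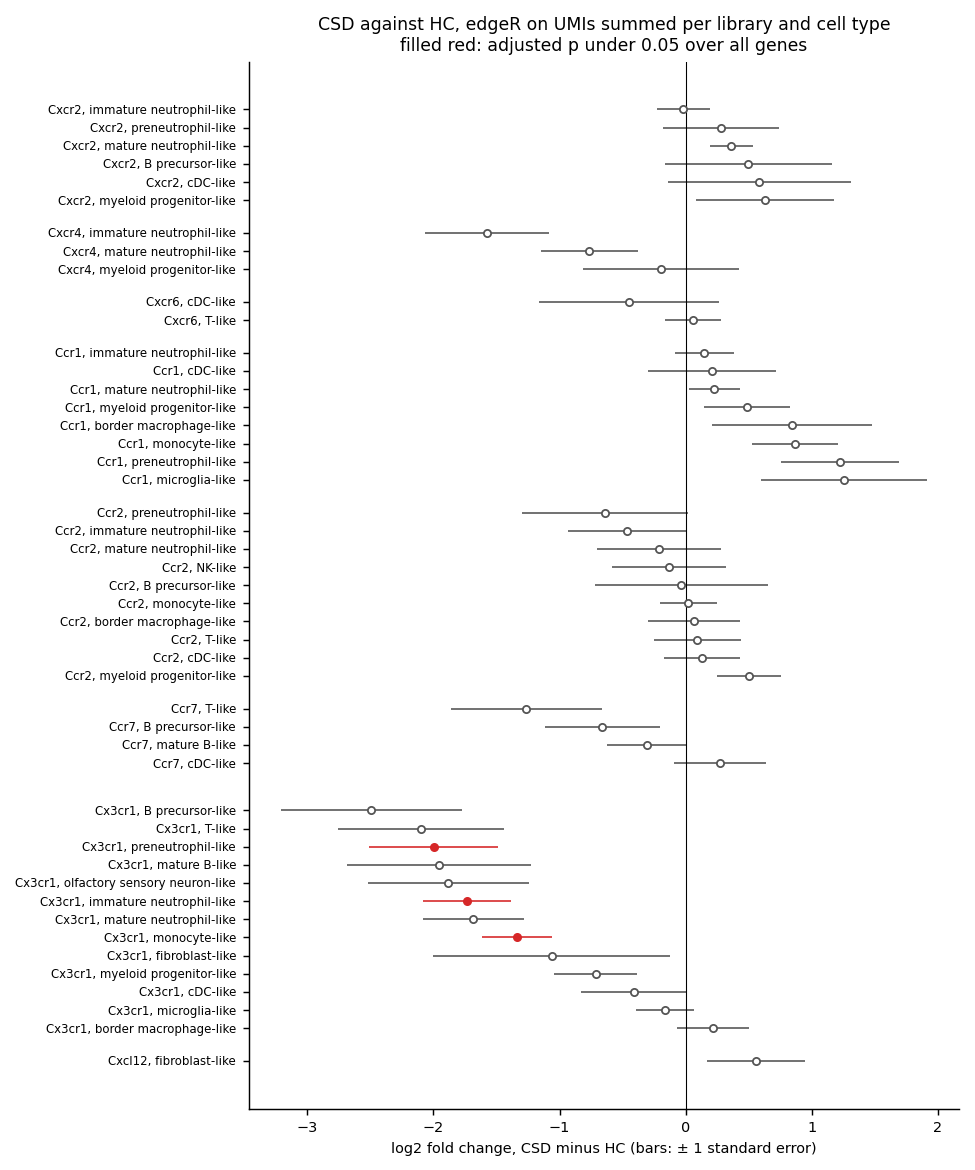
The log2 fold change, CSD minus HC, for the 47 tests of 8 members, as points on the horizontal axis. Bars are ± 1 standard error, derived from the fold change and its F statistic. The 3 filled red points, *Cx3cr1* in monocyte-like, immature neutrophil-like and preneutrophil-like cells, passed the adjusted threshold, and the 8 *Ccr1* points all lie above 0 without passing it.

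*Cx3cr1* fell in monocyte-like cells under CSD, with 193 and 160 CPM in HC and 69.5 CPM in CSD. The log2 fold change was -1.34 ± 0.28 (SE, edgeR adjusted p = 0.000343, where 1.4% of 5806 genes were called). In immature neutrophil-like cells the values were 62.9 and 34.1 against 13.4 CPM, a log2 fold change of -1.73 ± 0.35 (edgeR adjusted p = 0.000331, 1.78% of genes called). In preneutrophil-like cells they were 66.5 and 58.9 against 15.3 CPM, at -2.0 ± 0.51 (edgeR adjusted p = 0.018, 0.615% of genes called). The 2 HC libraries lay above CSD in all 3 types. Without HC replicate 1 the log2 values were -1.12, -1.11 and -1.81, and without HC replicate 2 they were -1.50, -2.10 and -2.05, with no test left. DESeq2 called none of the 3, with adjusted p of 1.00 for each.

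The same gene stood lower in CSD, without passing the test, in neurons and lymphocytes. Neurons and B cells are not known for this receptor, whereas effector and memory T cells can carry it. Olfactory sensory neuron-like cells had 83.8 and 43.4 CPM in HC and 18 CPM in CSD (log2 fold change -1.88 ± 0.64, edgeR adjusted p = 0.218). T-like cells had 67.3 and 27.2 against 11.4 CPM (-2.10 ± 0.66, edgeR adjusted p = 0.473), mature B-like cells 70.9 and 36.7 against 13.2 CPM (-1.96 ± 0.73, edgeR adjusted p = 0.454) and B precursor-like cells 51.9 and 30.7 against 6.73 CPM (-2.49 ± 0.72, edgeR adjusted p = 0.717). The CSD values in the neurons and in each of these lymphocyte types rest on few UMIs. Immature neutrophil-like cells lay 20.9, 9.3 and 4.63 CPM below the neurons, and preneutrophil-like cells 17.3 below, 15.5 above and 2.75 below. Monocyte-like cells lay 109, 116 and 51.5 CPM above the neurons. In barcodes of at most 100 UMIs, which hold mostly free RNA, *Cx3cr1* stood at 166, 65.8 and 69.7 CPM. Subtracting the profile of those barcodes, scaled to an estimated 19.6% to 36.9% of each sum, gave a monocyte-like log2 fold change of -1.58 (edgeR adjusted p = 0.396), and no member test passed (7 of 33 at an unadjusted p under 0.05). Over all genes, the share with such a p ran there from 44 of 3515 in preneutrophil-like cells to 531 of 4443 in fibroblast-like cells.

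Markers of microglia, the cells with most *Cx3cr1*, moved the same way in these types. The 10 microglia markers summed to 804, 624 and 313 CPM in monocyte-like cells, to 500, 458 and 193 in immature neutrophil-like, to 593, 515 and 263 in preneutrophil-like and to 510, 449 and 198 in the neurons. CSD was below both HC libraries for 9 of 10 markers in monocyte-like, preneutrophil-like and neuron-like cells, and for 8 of 10 in immature neutrophil-like cells, beside 34% of the tests over all genes. In the microglia-like cells themselves the sum was 22424, 22557 and 21979 CPM. The 11 border macrophage markers gave 6147, 3449 and 2147 CPM in monocyte-like cells and 3731, 1741 and 1053 CPM in the neurons. Fibroblast markers, which these cells also lack, stood at 509, 454 and 72.6 CPM in monocyte-like and 405, 540 and 84 CPM in neuron-like cells. The lower values were not particular to microglia markers. Mature B markers were below both for 9 of 9 in monocyte-like and 8 of 9 in immature neutrophil-like cells. They were below both for 7 of 9 in preneutrophil-like and in neuron-like cells. For cDC markers the counts in these 4 types were 4, 8, 5 and 5 of 11. The part of these markers' RNA in the 3 calls was not tested.

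A list of 10 patrolling monocyte genes, chosen after the values were seen, gave 912, 1010 and 597 CPM in monocyte-like cells and 175, 178 and 141 CPM in the neurons. It was lowest in CSD in the other types examined as well, at 559, 749 and 460 CPM in cDC-like cells and 296, 381 and 254 CPM in T-like cells. The genes below both HC libraries in CSD were 8 of 10 in monocyte-like, 6 of 10 in cDC-like, 5 of 10 in T-like and 4 of 10 in neuron-like cells, beside 34% of the tests over all genes. In monocyte-like cells, *Gngt2* stood at 435, 432 and 267 CPM and *Ear2* at 150, 147 and 69.5. *Spn* lay above both at 47.4 CPM, and *Nr4a1*, a transcription factor that patrolling monocytes need, lay between at 69.2, 115 and 72.6 CPM. Whether fewer cells of this kind, less *Cx3cr1* RNA per cell or less free RNA gave the lower sum was not tested. *Ccr2*, counted in the same monocyte-like cells, had a log2 fold change of 0.02 ± 0.22 (SE, edgeR adjusted p = 0.991).

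Where *Cx3cr1* is highest, no difference passed the test. Microglia-like cells had a log2 fold change of -0.16 ± 0.23 (SE, edgeR adjusted p = 0.968) and border macrophage-like cells 0.22 ± 0.28 (adjusted p = 0.999 by edgeR), where 0.023% and 0% of genes were called. The difference between these types was 0.39 ± 0.26 on the log2 scale (interaction in edgeR with library as a block, adjusted p = 0.993). In mature neutrophil-like cells the value of -1.68 ± 0.40 missed the threshold (edgeR adjusted p = 0.0878).

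**Figure D5:**
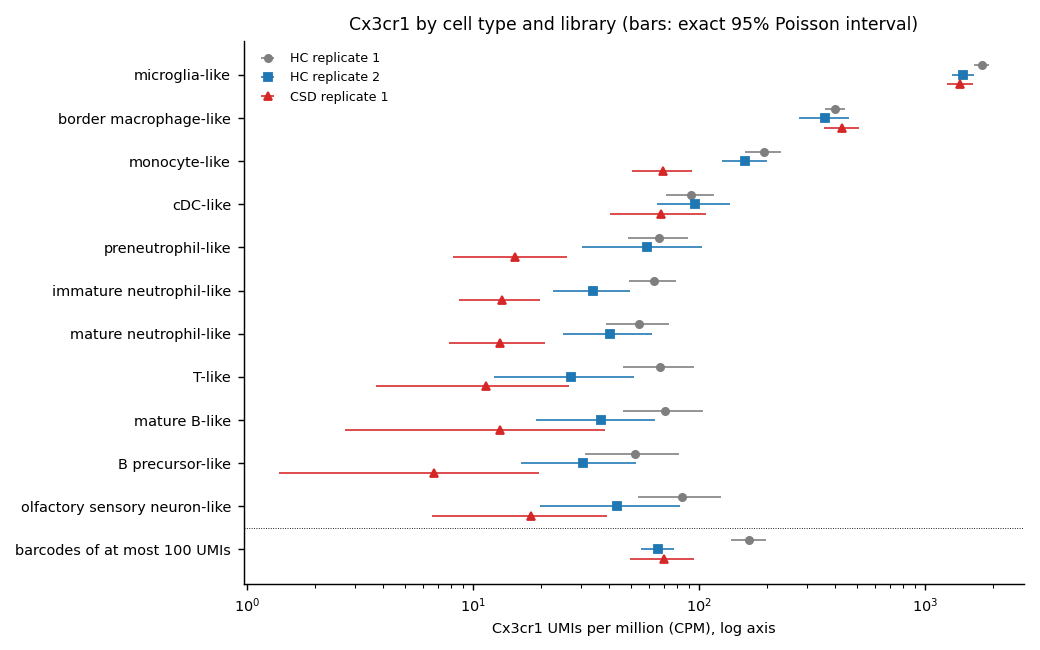
*Cx3cr1* CPM on a log axis in 11 cell types and, under the dotted line, in barcodes of at most 100 UMIs, with a point for each library and its exact 95% Poisson interval. The CSD triangle lies left of both HC points from the monocyte-like row to the neuron row, cDC-like included (67.8 against 92.1 and 96.4 CPM). It also lies left of both in microglia-like cells (1433 against 1778 and 1471 CPM). In border macrophage-like cells it lies right of both (429 against 401 and 360 CPM).

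For *Cxcr2* in mature neutrophil-like cells, CSD was above both HC libraries (446 and 443 against 504 CPM), with a log2 fold change of 0.36 ± 0.17 (SE, edgeR adjusted p = 0.497). The thinned share of cells with a UMI was 22.5% and 22.9% in HC and 24.6% in CSD, shares that carry no spread between CSD pools and were not tested. In immature neutrophil-like cells the log2 value was -0.02 ± 0.21 (edgeR adjusted p = 0.991), and its sign turned under 7 of 13 alternatives, leaving out HC replicate 2 among them. The difference of the CSD effect between mature and immature neutrophil-like cells, -0.42 ± 0.17, had an unadjusted p of 0.0163 and an adjusted p of 0.502 in edgeR (0.261% of genes called). In barcodes of at most 100 UMIs *Cxcr2* stood at 46.3 and 77.1 CPM in HC and 93 CPM in CSD, and the part of free RNA was not tested. None of the 6 *Cxcr2* tests passed, or had an unadjusted p under 0.05, by edgeR.

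*Cxcr4* was below both HC libraries in each of its 3 tests, beside 34% of all tests, and the types share the same 3 libraries. In myeloid progenitor-like cells the log2 fold change was -0.19 ± 0.62 (SE, edgeR adjusted p = 0.999). In immature neutrophil-like cells 22 and 20 UMIs in HC (19.5 and 24.4 CPM) stood against 12 in CSD (6.4 CPM), a log2 fold change of -1.58 ± 0.49 (SE, edgeR adjusted p = 0.0861). It passed the threshold without the mutual-nearest-neighbour correction (adjusted p = 0.0243 in edgeR) and at Leiden resolution 2 (adjusted p = 0.0391 in edgeR), 2 of 10 alternatives with a test. Mature neutrophil-like cells had -0.76 ± 0.38 (edgeR adjusted p = 0.543), and the effects in the 2 types differed by -0.86 ± 0.57 (edgeR adjusted p = 0.772). In barcodes of at most 100 UMIs *Cxcr4* was not lower in CSD, at 8.99 and 7.99 CPM in HC and 19.7 CPM in CSD.

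*Ccr1* was above both HC libraries in all 8 types tested, with log2 fold changes of 0.15 to 1.26, and none passed by edgeR (2 of 8 at an unadjusted p under 0.05, none by DESeq2 after adjustment). Of all tests, 33.4% lie above both, and the types share the same 3 libraries. The lowest p-values were in monocyte-like cells (44.5 and 40.5 against 77.4 CPM, 0.87 ± 0.34, edgeR adjusted p = 0.359) and preneutrophil-like cells (18.1 and 19.6 against 42.3 CPM, 1.23 ± 0.47, edgeR adjusted p = 0.441). Over all genes in these 2 types, 489 of 5806 and 251 of 4875 tests had an unadjusted p under 0.05. In mature neutrophil-like cells, where it is highest, the value was 0.23 ± 0.20 (edgeR adjusted p = 0.758), 0.024 with HC replicate 1 left out and 0.44 with the other left out. In border macrophage-like cells the HC libraries themselves stood at 74.9 and 11.4 CPM, and the log2 value of 0.84 ± 0.63 became 3.07 without HC replicate 1. Barcodes of at most 100 UMIs held *Ccr1* at 46.3 and 72.4 CPM in HC and 69.7 CPM in CSD, and the part of free RNA was not tested.

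*Ccr2*, *Ccr7*, *Cxcr6* and *Cxcl12* had no test past the threshold in edgeR or DESeq2. Of 10 *Ccr2* tests, 5 were higher and 5 lower, from -0.64 to 0.51 on the log2 scale, the highest in myeloid progenitor-like cells (127 and 130 against 181 CPM, edgeR adjusted p = 0.85). *Ccr7* in mature B-like cells had -0.31 ± 0.31 (edgeR adjusted p = 0.956) and in T-like cells -1.26 ± 0.60 on 13, 22 and 8 UMIs (edgeR adjusted p = 0.897). *Cxcr6* in T-like cells had 0.06 ± 0.23 (edgeR adjusted p = 0.996, 0.136% of genes called). *Cxcl12* in fibroblast-like cells had 167 and 210 CPM in HC and 272 in CSD, on 19 UMIs from 22 CSD cells, a log2 value of 0.56 ± 0.39 (edgeR adjusted p = 0.73, 0.714% of genes called). At an unadjusted p under 0.05 there were 1 test of *Ccr2*, 1 of *Ccr7* and none of the other 2. The first was in myeloid progenitor-like cells (411 of 7269 genes there) and the second in T-like cells (279 of 5150 genes).

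Among 18 ligands of these receptors, 5 to 11 passed the filter in each type, and *Ccl3* passed the test in 4 of 14 types. It fell in CSD in mature neutrophil-like cells (log2 fold change -1.50 ± 0.21, edgeR adjusted p = 0.00562), immature neutrophil-like cells (-0.85 ± 0.24, edgeR adjusted p = 0.0367) and monocyte-like cells (-0.94 ± 0.25, edgeR adjusted p = 0.0133). In NK-like cells it rose (1.55 ± 0.28, edgeR adjusted p = 1.47e-05), where the HC libraries stood far apart at 1598 and 366 normalized CPM and CSD at 2860, and the log2 value became 2.95 with the first of them left out and 0.84 with the second left out. *Ccl5* fell in cDC-like (-1.19 ± 0.27, edgeR adjusted p = 0.00401) and immature neutrophil-like cells (-0.69 ± 0.19, edgeR adjusted p = 0.0294), and *Cxcl2* in cDC-like cells (-1.39 ± 0.35, edgeR adjusted p = 0.019). *Ccl8* was called lower in myeloid progenitor-like cells (-3.77 ± 1.03, edgeR adjusted p = 0.0267), although its values of 22.8 and 0 in HC and 0.861 normalized CPM in CSD overlap, so the call rests on HC replicate 1 (log2 value 1.57 without it). Of these 8 ligand calls, DESeq2 made none (adjusted p 0.11 for *Ccl3* in mature neutrophil-like cells and 1.00 for the others). With the empty-droplet profile subtracted, *Ccl3* passed in mature neutrophil-like cells (-3.47, edgeR adjusted p = 0.00207), and none of the other 6 that could still be tested did (edgeR adjusted p = 0.396 to 0.996). Background shares there were 0.859% of genes called in mature neutrophil-like, 0.942% in NK-like, 0.501% in cDC-like and 1.14% in myeloid progenitor-like cells. The median log2 fold change of the ligands was -1.26 in cDC-like and -0.47 in mature neutrophil-like cells, beside -0.01 and -0.02 over all genes there.

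Of 15 other chemokine receptors, 0 to 4 passed the filter in each type, and 1 test passed the threshold: *Ccrl2*, an atypical receptor that presents chemerin, fell in preneutrophil-like cells (18.8 and 43.8 against 2.49 normalized CPM, log2 fold change -3.26 ± 0.89, edgeR adjusted p = 0.0407, where 0.615% of genes were called). DESeq2 did not call it (adjusted p = 1.00), and with the profile subtracted it fell under the filter. Of 20 genes that signal behind the receptors, 10 to 20 passed the filter in each type. Over the 14 types, 1 of their tests passed, beside 0.709% of the tests over all genes. It was *Rgs1*, which ends G protein signalling, lower in monocyte-like cells (109 and 48.2 against 24.5 normalized CPM, -1.70 ± 0.40, edgeR adjusted p = 0.00252, where 1.4% of genes were called). The *Rgs1* value became -0.95 with HC replicate 1 left out and -2.12 with the other left out, and the call was lost in DESeq2 (adjusted p = 1.00) and with the profile subtracted (edgeR adjusted p = 0.914). Their median log2 fold change was 0.15 in mature neutrophil-like and 0.07 in monocyte-like cells, beside -0.02 over all genes in both.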

How the data were processed

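The data are single-cell 3′ libraries (10x Chromium v2) of 3 meningeal pools, grouped by the labels into HC (2 libraries) and CSD (1 library). Per the labels, the authors processed reads with Cell Ranger 2 on mm10, and the deposited values are raw UMI counts for every barcode, with no cells called and no normalization. Libraries were told apart by the number ending each barcode, taken to be the label's library number. The members and gene lists were chosen with earlier results of these data known.

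Here, barcodes were kept by the limits of 500 UMIs, 174 to 4548 genes and 8.3% mitochondrial UMIs. Scrublet (scanpy 1.11.5) removed 50, 16 and 141 doublets, by its automatic threshold or, in CSD, as the top 5.1% of scores, because the automatic threshold there fell outside 0.5% to 15% of cells. Cells were clustered on 3000 variable genes without the chemokine genes, with 50 components, mutual-nearest-neighbour correction and Leiden at resolution 1, and named by the highest score over fixed marker lists, with pro-B and pre-B lists merged. Summed counts were tested with edgeR 4.0.16 (TMM, at least 20 UMIs, BH, 0.05) and, as an alternative, DESeq2 1.42.0. The edgeR fit was tested on simulated data with 200 changed genes per cell type. It recovered 4% (fibroblast-like) to 32% (immature neutrophil-like) of 2-fold changes and 33% (fibroblast-like) to 84% (myeloid progenitor-like) of 4-fold changes. A test that did not pass therefore does not show that a gene was unchanged. Types with under 20 cells in a library (pDC-like, ILC2-like, basophil and mast cell-like, erythroid-like, endothelial-like) were not tested. Named genes are the 9 members, genes of the other lists past the threshold (at most 3 per type and direction) and the 3 genes most alike to each member with at least 50 UMIs. The *Ccr7*-high cells, the patrolling list and the genes beside them were added after values were seen. Intervals cover counting error only. Alternatives were no TMM, other filters, leaving out each HC library, subtracting the profile of barcodes of at most 100 UMIs, at least 1000 UMIs, doublets kept, a 5% mitochondrial limit, no correction, Leiden resolution 2 and chemokine genes kept in clustering.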

Additional observations from a re-analysis of the deposited data

How the results depend on the processing

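Of 47 member tests, 3 passed the threshold. DESeq2 gave 0 of 47 (4 at an unadjusted p under 0.05) and subtracting the empty-droplet profile gave 0 of 33. The other 9 alternatives with a test gave 2 to 4. Subtraction makes the sums smaller and also removes free RNA, and why no member passed there was not tested. Over all genes, the share at an unadjusted p under 0.05 in DESeq2 ran from 11 of 5754 in border macrophage-like cells to 84 of 5590 in mature neutrophil-like cells. *Cx3cr1* passed in monocyte-like cells under 7 of 11 alternatives (adjusted p 0.000368 to 1.00 over them in edgeR or DESeq2), in immature neutrophil-like cells under 5 of 10 and in preneutrophil-like cells under 5 of 11, always lower in CSD. Over all genes, 512 of 72228 tests were called, against 25 of 72228 by DESeq2 and 327 of 72228 without TMM. Other gene filters gave 621 of 180622 with no filter and 200 of 34523 with genes in over 15% of cells. Subtracting the profile gave 122 of 57143. Other cell limits gave 242 of 72143 with at least 1000 UMIs, 299 of 74994 with doublets kept and 336 of 71600 at the 5% mitochondrial limit. Other clusterings gave 436 of 72761 without the neighbour correction, 291 of 67693 at Leiden resolution 2 and 354 of 72706 with chemokine genes kept. Leaving out an HC library leaves no residual degree of freedom, so those fits gave values without a count.

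Signs turned under at least 1 alternative in 14 of the 47 tests, none of them called. Leaving out HC replicate 1 turned 7 signs and leaving out HC replicate 2 turned 3, the 10 tests in which CSD lay between the HC libraries. Among these, *Ccr7* in cDC-like cells went from 0.27 to -0.39 and *Ccr2* in border macrophage-like cells from 0.068 to -0.28 without HC replicate 1, and *Cxcr6* in T-like cells from 0.060 to -0.070 without HC replicate 2. *Cxcr2* in immature neutrophil-like cells rose above 0 with no filter (0.083), at least 1000 UMIs (0.059), doublets kept (0.091), a 5% mitochondrial limit (0.043), Leiden resolution 2 (0.16) and chemokine genes kept in clustering (0.13). With the profile subtracted, *Cxcr2* in preneutrophil-like cells was -0.45, *Cxcr6* in T-like cells -0.058, *Ccr1* in immature neutrophil-like cells -0.015, *Ccr2* in border macrophage-like cells -0.0065 and in monocyte-like cells -0.098. *Ccr2* in monocyte-like cells was also -0.018 with genes in over 15% of cells, -0.019 with at least 1000 UMIs, -0.041 without the neighbour correction and -0.024 with chemokine genes kept. *Ccr1* in immature neutrophil-like cells was -0.024 without TMM and -0.34 without the correction, *Cxcr6* in cDC-like cells 0.68 with doublets kept and *Ccr7* in cDC-like cells -0.021 at Leiden resolution 2. The cause was not tested. Of the 10 calls among ligands, other receptors and signalling genes, *Ccl3* in mature neutrophil-like cells passed under 7 of 10 alternatives, in NK-like cells under 5 of 11, in monocyte-like cells under 3 of 11 and in immature neutrophil-like cells under 2 of 11. *Ccl5* passed under 2 of 11 in each of its types, *Cxcl2* under 0 of 11 (adjusted p 0.126 to 1.00 in edgeR or DESeq2), *Ccl8* under 2 of 6, *Ccrl2* under 4 of 9 and *Rgs1* under 5 of 11. Their sign turned once, for *Ccl8*, at 1.57 without HC replicate 1 and -4.16 without HC replicate 2. For the difference between cell types, *Cxcr2* passed without the correction (-0.61, edgeR adjusted p = 0.021), *Cxcr6* turned to 0.72 with doublets kept and *Ccr1* to 0.024 with at least 1000 UMIs.

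Levels moved by more than 1 SD in 5 recomputations and by less in 48. *Cxcr2* in mature neutrophil-like cells was 519 CPM both without the correction and at Leiden resolution 2, *Ccr9* in pDC-like cells 315 CPM without it, and *Cxcr6* in T-like cells 310 CPM with doublets kept and 249 CPM at the 5% limit. With at least 1000 UMIs no cluster was endothelial-like and *Cxcl12* was highest in fibroblast-like cells. No paired analysis was possible because nothing in the labels pairs an HC pool with the CSD pool.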

Other observations

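Barcodes left out by the limits on genes and mitochondrial UMIs, or with over 100 but under 500 UMIs, held the members too, without a comparison in the report. In the library order of the report, *Cxcr2* stood there at 85, 76.3 and 180 CPM, on 9, 110 and 12 UMIs, and *Cx3cr1* at 189, 56.9 and 45.1 CPM on 20, 82 and 3 UMIs.

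Receptors were often read in the same cells. Of 337 monocyte-like cells, 278 had a *Ccr2* UMI, 149 a *Cx3cr1* UMI and 124 both, and of 506 border macrophage-like cells, 149, 290 and 99 did. Of 509 T-like cells, 226 had a *Cxcr6* UMI, 68 a *Ccr2* UMI and 46 both. These counts depend on the depth of each cell and on free RNA. They were not set against the overlap that the separate counts alone would give, and were not tested.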
